A study of Mus musculus with 23 samples.

Results

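Cytosolic ribosomal protein genes encode the protein components of the ribosome that translates nuclear mRNAs. They were chosen by symbol: Rpl or Rps followed by a number and any run of a, x, l, y or digits, together with Rplp0, Rplp1, Rplp2 and Rpsa, without the Rps6k kinases, Rps27l and pseudogenes marked as such by name. The gene table held 89 such symbols, the array carried probes for 83 of them, and 80 were tested among 19899 genes. Of the 80, 76 formed a core of 1 gene per ribosomal protein and 4 were paralogs of a core gene (Rpl7l1, Rpl22l1, Rpl36al and Rps4l). The gene table annotates Rps4l as a transcribed pseudogene. The paralogs Rpl3l, Rpl10l and Rpl39l had probes that were well above background on 1, 1 and 0 of the 23 arrays and were not tested. Rps23, Rps3a2, Rps3a3, Rps12l1, Rpl6l and Rpl32l had no matched probe and were not analysed here.

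Liver RNA came from female B6C3F1 mice, a hybrid strain bought at 5 to 6 weeks of age and kept for at least 7 days before dosing. Furan, a volatile compound formed in heated food that the liver oxidises to a reactive dialdehyde, was given in corn oil by oral gavage for 21 days, and liver was taken 4 h after the last dose. The 5 controls received corn oil alone, and doses of 1, 2, 4 and 8 mg per kg body weight went to 4, 5, 4 and 5 animals. Of the 25 samples that the submitters' text counts, 23 were analysed here. Each array compared liver RNA labelled with Cy5 against a universal mouse reference RNA labelled with Cy3, and the dyes were never swapped. Values are log2 ratios of liver to reference RNA, and a change is a log2 difference between group means ± standard error.

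Ribosomal proteins are made in near-equal amounts and assembled with ribosomal RNA in the nucleolus into a small subunit, which reads the mRNA, and a large subunit, which joins amino acids. Their mRNAs are among the most abundant of a cell. They begin with a C followed by a run of pyrimidines, the 5′ terminal oligopyrimidine (TOP) motif. Through it mTOR signalling and Larp1 control their translation. When assembly of ribosomes is disturbed, a few free ribosomal proteins bind Mdm2, the ubiquitin ligase of p53. An mRNA array therefore sees the level of the transcripts and not the use made of them.

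Start sites taken from RefSeq (assembly GRCm38.p6) are shown for 5 genes because the TOP motif is described for this family. Each window holds 30 bases before and 20 bases from the annotated start, on the gene's own strand, and capitals mark a C followed by at least 4 bases that are each C or T, beginning within 5 bases of the start. Rpl12, Rpl15 and Rps6 belong to the core, and each holds such a stretch, which was found at 26 of 56 core members with an entry (46.4%). Of the tested paralogs with an entry, 1 of 3 had it, Rpl22l1, which is not shown. Rpl7l1 is the paralog that changed most, and Rps27l is a paralog outside the symbol rule. The windows lie at chr2:32961682-32961731 (plus strand, Rpl12), chr14:18270967-18271016 (minus, Rpl15), chr4:86857348-86857397 (minus, Rps6), chr17:46782637-46782686 (minus, Rpl7l1) and chr9:66946056-66946105 (plus, Rps27l).
Rpl12: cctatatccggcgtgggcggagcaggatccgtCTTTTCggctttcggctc
Rpl15: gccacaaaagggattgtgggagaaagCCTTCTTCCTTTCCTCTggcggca
Rps6: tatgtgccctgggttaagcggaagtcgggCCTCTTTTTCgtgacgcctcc
Rpl7l1: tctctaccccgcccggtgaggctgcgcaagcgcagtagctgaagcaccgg
Rps27l: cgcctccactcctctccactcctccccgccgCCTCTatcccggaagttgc

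Such a pyrimidine start was found at 27 of the 59 tested members that have an entry in the promoter table (45.8%), at 17 of 69 mitochondrial ribosomal protein genes (24.6%) and at 5718 of 27025 genes in all (21.2%). Only the gene's own strand was searched. Among the members called below, Rpl12, Rpl15 and Rpl19 had the motif in this window, Rpsa and Rpl7l1 did not, and Rps29 has no entry. A match is a description of these letters around an annotated start.

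The number of probes well above background ranged from 22010 to 30114 over the arrays, and 0 member signals were saturated. Each of the 5 slides held several groups, but slide 2 lacked a control, slide 3 the 4 mg/kg group and slide 5 the 1 mg/kg group. Of 67 marker genes of 10 liver and other cell types on the array, 48 were tested and 0 were called at any dose. Of all genes, limma called 0%, 0.0101%, 0.0754% and 8.03% at 1, 2, 4 and 8 mg/kg. Marker means varied widely within groups, with an SD of 0.27 to 0.62 for hepatocytes, so 0 calls do not show a stable mix of cells. Pancreatic markers (3 of 12 tested) were high on replicates 1 and 5 at 2 mg/kg, replicate 1 at 4 mg/kg and replicate 5 at 8 mg/kg, by 1.62 to 2.50, against -0.76 to 0.62 on the other arrays. Neutrophil markers (4 of 7 tested) were at 2.83 on replicate 4 at 2 mg/kg and at most 0.79 elsewhere. The 4 arrays of slide 3, of which 1 was a control and 1 an 8 mg/kg animal, were high in hepatocyte markers (8 of 8 tested; 0.63 to 1.03, others at most 0.21) and erythrocyte markers (4 of 7 tested; 0.45 to 0.75, others at most 0.13). The part of slide 3 and of the neutrophil markers in the results was not tested beyond the values within slides and with slide as a block. In whole liver, a change in the share of a cell type and a change in RNA per cell cannot be told apart.

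At 8 mg/kg 5 of the 80 ribosomal protein genes passed the test: Rpl7l1, Rpl12, Rpl15 and Rpsa rose and Rps29 fell. That share compares with 8.03% of all 19899 genes called at this dose (4.28% higher, 3.74% lower; limma, Benjamini-Hochberg adjusted p under 0.05). At an unadjusted p under 0.05 there were 7 members, with Rpl19 and Rpl4 added, against 20.9% of all genes. The median change of the members was 0.043, and that of all genes was -0.027. Of the members, 52 lay above their control mean and 28 below it, a split that depended on the scaling described further on. The animals did not overlap with the controls for 3 members, Rpl7l1, Rpl12 and Rpl27a, all higher, against 8.77% of all genes in either direction (4.48% higher, 4.29% lower). Without the 4 arrays high in pancreatic markers, 2 members were called, against 6.52% of all genes: Rpl12 at 0.38 and Rpl7l1 at 0.51 (limma adjusted p = 0.0063 and 0.0053). In that fit Rpl15 was at 0.24, Rpsa at 0.23 and Rps29 at -0.19, and none of the 3 passed (adjusted p = 0.0811, 0.0623 and 0.0828).

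**Figure D1:**
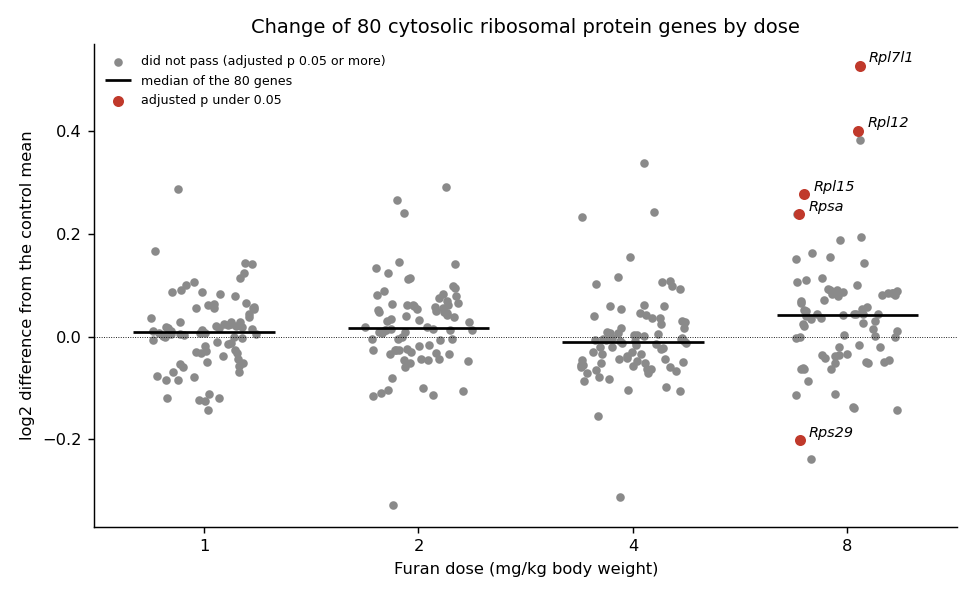
Log2 difference from the control mean (vertical axis) of each of 80 cytosolic ribosomal protein genes at 4 furan doses (horizontal axis); red points passed limma at an adjusted p under 0.05, grey points did not, and the black line is the median. Most points lie within 0.2 of 0 at every dose, and the 5 red points are all at 8 mg/kg.

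Rpl7l1 encodes a paralog of the large-subunit protein Rpl7 and is a member by its symbol. The arrays do not show whether its protein is part of the ribosome. Its log2 ratios to the reference were 0.40, 0.55, 0.65, 0.68 and 0.75 in the controls and 1.02, 1.02, 1.17, 1.19 and 1.26 at 8 mg/kg. The 2 groups did not overlap. The 1 mg/kg animals, at 0.75, 0.84, 0.85 and 1.13, also did not overlap with the controls, although the lowest of them equalled the highest control to 2 decimals. The 2 mg/kg animals lay at 0.64, 0.77, 0.93, 0.95 and 0.95 and the 4 mg/kg animals at 0.73, 0.91, 1.04 and 1.09, so that both groups overlapped with the controls. The change at 8 mg/kg was 0.53 ± 0.09 (1.44-fold, n = 5 and 5, limma adjusted p = 0.0014), and at 1, 2 and 4 mg/kg it was 0.29, 0.24 and 0.34, without passing (adjusted p = 0.999, 0.467 and 0.226). Within the 4 slides that held both groups it was 0.37 to 0.64 at 8 mg/kg. Its single probe was the dimmest used for a called member (mean log2 intensity 9.69), although it was above background on every array.

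Rpl12 encodes a protein at the base of the ribosomal stalk, the arm of the large subunit that recruits elongation factors. Its ratios were -1.14, -1.05, -1.02, -1.01 and -0.89 in the controls and -0.72, -0.63, -0.62, -0.61 and -0.53 at 8 mg/kg, again without overlap. The animals given 1 mg/kg lay at -0.96, -0.96, -0.89 and -0.72, those given 2 mg/kg at -0.98, -0.93, -0.90, -0.85 and -0.83, and those given 4 mg/kg at -0.96, -0.82, -0.71 and -0.64. Each of these groups overlapped with the controls. Rpl12 rose by 0.40 ± 0.07 at 8 mg/kg (1.32-fold, n = 5 and 5, limma adjusted p = 0.00119), and its second probe rose by 0.30 ± 0.08 (adjusted p = 0.0202 over all kept probes). Within slides the change was 0.33 to 0.52. The other stalk genes did not pass at 8 mg/kg: Rplp0, the scaffold of the stalk, was at 0.04 ± 0.08, Rplp1 at 0.08 ± 0.08 and Rplp2 at -0.05 ± 0.06.

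Rpsa encodes a small-subunit protein also known as a laminin receptor. Its ratios were -0.62, -0.57, -0.56, -0.53 and -0.39 in the controls and -0.47, -0.26, -0.26, -0.25 and -0.24 at 8 mg/kg. The lowest 8 mg/kg animal lay below the highest control, and the other 4 lay above every control. The change was 0.24 ± 0.06 at 8 mg/kg (1.18-fold, n = 5 and 5, limma adjusted p = 0.0192) and 0.23 ± 0.06 at 4 mg/kg (adjusted p = 0.196). Without control replicate 1 or without 8 mg/kg replicate 4 it was 0.22, at adjusted p = 0.0523 and 0.0502. Its 4 kept probes gave 0.20 to 0.39 at 8 mg/kg, and within slides the change was 0.12 to 0.31. Over all kept probes only the brightest passed (limma adjusted p = 0.0228), and the others did not (0.205 to 0.334). The value of 0.39 ± 0.22 came from the dimmest (mean log2 intensity 7.43).

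Rpl15 encodes a core protein of the large subunit. Its ratios were -0.81, -0.77, -0.71, -0.69 and -0.48 in the controls and -0.52, -0.50, -0.44, -0.32 and -0.28 at 8 mg/kg, so the groups overlapped by 1 control animal. The change was 0.28 ± 0.08 (1.21-fold, n = 5 and 5, limma adjusted p = 0.0457). It passed in 8 of 23 fits that left out 1 array, and the range of its adjusted p over all alternatives was 0.0092 to 0.509. Its dimmer second probe was at -0.09 ± 0.09, in the opposite direction and not passing. Within slides the change was 0.16 to 0.43.

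Rps29 encodes a small zinc-binding protein of the small subunit and was the member that fell. Its ratios were 0.66, 0.72, 0.83, 0.86 and 0.86 in the controls and 0.48, 0.55, 0.55, 0.61 and 0.72 at 8 mg/kg. The highest 8 mg/kg animal reached into the control range. The 4 mg/kg animals lay at 0.60, 0.63, 0.63 and 0.67, the 2 mg/kg animals at 0.63, 0.65, 0.66, 0.68 and 0.77, and the 1 mg/kg animals at 0.82, 0.85, 0.85 and 0.86. Rps29 fell by 0.20 ± 0.06 on the log2 scale at 8 mg/kg (limma adjusted p = 0.0336), its 3 probes lay at -0.26 to -0.19, and within slides the difference was -0.30 to -0.15. With median signals corrected by normexp the direction turned, to 0.04 at an adjusted p of 0.926, and it passed in 16 of 23 fits that left out 1 array.

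A slope over dose was called for 6 members, against 10.4% of all genes (5.36% higher, 5.07% lower): the same 5 and Rpl19, a large-subunit protein that forms a bridge to the small subunit. The slopes per mg/kg were 0.055 ± 0.011 for Rpl7l1, 0.046 ± 0.008 for Rpl12, 0.032 ± 0.009 for Rpl15, 0.028 ± 0.008 for Rpl19 and 0.026 ± 0.007 for Rpsa, and -0.028 ± 0.007 for Rps29 (limma adjusted p from 2.9e-04 to 0.0283). Rpl19 had ratios of -0.44, -0.43, -0.35, -0.22 and -0.14 in the controls and -0.18, -0.15, -0.12, 0.02 and 0.03 at 8 mg/kg. These groups overlapped, and the change of 0.24 ± 0.08 missed the threshold (adjusted p = 0.0567), while with slide as a block it was 0.22 ± 0.06 and passed (limma adjusted p = 0.0152). A moderated F test over the 4 doses called Rpl7l1 and Rpl12, against 3.11% of all genes.

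**Figure D2:**
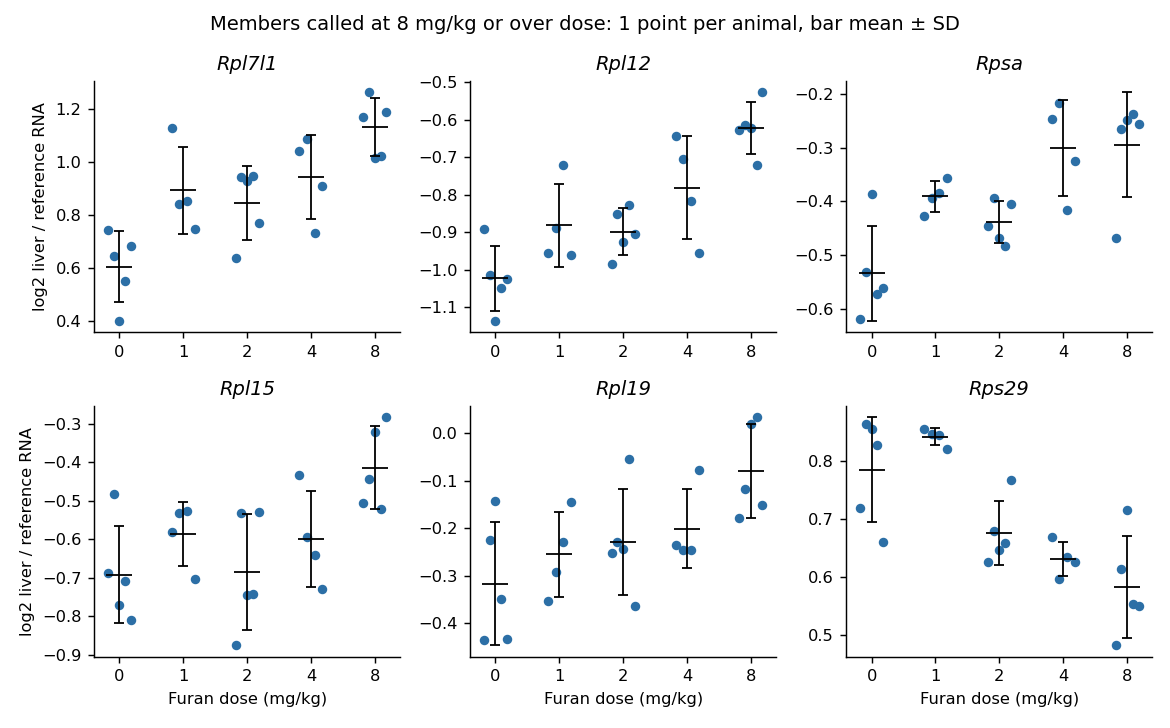
Log2 ratio of liver to reference RNA (vertical axes, different ranges) of 6 members by furan dose (horizontal axes), with 1 point per animal and the group mean ± SD. At 8 mg/kg every animal lies above every control for Rpl7l1 and Rpl12, while the groups overlap for Rpsa, Rpl15, Rpl19 and Rps29.

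At the lower doses 0 members were called. Of all genes, limma called 0%, 0.0101% and 0.0754% at 1, 2 and 4 mg/kg. At an unadjusted p under 0.05 there were 2 members at 1 mg/kg (Rpl7l1 and Rpsa), 2 at 2 mg/kg (Rpl7l1 and Rpl22l1) and 5 at 4 mg/kg (Rpl7l1, Rpl12, Rpsa, Rps29 and Rpl22l1), against 3.5%, 8.68% and 8.92% of all genes. The member medians were 0.0089, 0.016 and -0.010. Groups that did not overlap with the controls were found for 1 member at 1 mg/kg (Rpl7l1) and 0 at 2 mg/kg, against 1.33% and 1.58% of all genes. Between 8 and 4 mg/kg 0 members were called, against 0.206% of all genes, and 3 (Rpl12, Rpl23a and Rpl30) had an unadjusted p under 0.05, against 8.41%.

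How closely the members' change could be bounded depended on the signal and scaling. With loess on the processed signals, the residual SD within groups had a median of 0.11 over the members, 0.13 over the 992 genes at least as bright as the 5th percentile of the core, and 0.24 over all genes. At 8 mg/kg the 95% interval of the change lay wholly within 0.3 of 0 on the log2 scale (1.23-fold in either direction) for 61 of the 80 members (76.2%), against 18.6% of all genes. The count of 61 fell to 43 with median centring (16.1% of all genes), 26 in the deposited value table (25.4%), 8 with median signals (24.1%) and 3 with median signals after normexp (26%). The members' median residual SD was 0.12, 0.17, 0.20 and 0.23 in these 4 fits. With loess on the processed signals the count was 70 for each of the 3 lower doses. A change beyond 0.3 was measured for 3 members at 8 mg/kg, Rpl7l1, Rpl12 and Rps4l, against 23.1% of all genes.

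At 8 mg/kg limma called 8.03% of all genes (4.28% higher, 3.74% lower), and both subunits held calls at a share near this. Of 46 large-subunit genes, paralogs included and the 3 stalk genes Rplp0, Rplp1 and Rplp2 left out, 3 rose and 43 did not pass. Of 31 small-subunit genes, the paralog Rps4l included, 1 rose, 1 fell and 29 did not pass. In the core of 76 genes 3 rose and 1 fell. Rps6, the substrate of the S6 kinases, lay at -0.14, -0.13, -0.12, -0.04 and 0.09 in the controls and at -0.17, -0.14, -0.07, -0.06 and 0.09 at 8 mg/kg. These groups overlapped throughout, with a difference of -0.002 ± 0.061 and a 95% interval of -0.13 to 0.13. Rpl3, which reaches towards the peptidyl transferase centre, was at -0.11 ± 0.08, Rpl13a at -0.04 ± 0.09 and Rps3a1 at 0.04 ± 0.09. A dimmer probe of Rpl13a rose by 0.26 ± 0.08 (limma adjusted p = 0.0492 over all kept probes). Rps27a, which is made as a fusion with ubiquitin, was at 0.04 ± 0.07. The falls next in size after Rps29 that did not pass were Rps27 (-0.14 ± 0.08), Rps21 (-0.14 ± 0.08) and Rps20 (-0.14 ± 0.08), all small-subunit genes, and the 4 probes of Rps27 ranged from -0.19 to -0.14.

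Of the 14 ribosomal proteins listed as binding Mdm2, 0 were called at 8 mg/kg (8.03% of all genes) and 0 had an unadjusted p under 0.05 (20.9% of all genes; limma), with a median of 0.03. Rpl5 and Rpl11, which bind Mdm2 together with the small ribosomal RNA of the large subunit, were at 0.05 ± 0.09 and 0.02 ± 0.08. Mdm2 itself rose by 0.66 ± 0.08 and the p53 target Cdkn1a by 2.79 ± 0.16 in the same animals. Of 8 proteins lining the peptide exit tunnel and its rim, 0 were called at 8 mg/kg and 2, Rpl19 and Rpl4, had an unadjusted p under 0.05, with a median of 0.06, against the same shares of all genes.

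The other 3 paralogs did not pass at any dose. Rpl22l1, whose protein can take the place of Rpl22 in the ribosome, had ratios of -0.97, -0.93, -0.67, -0.55 and -0.50 in the controls and -1.27, -1.10, -1.05, -1.03 and -0.80 at 2 mg/kg. At 8 mg/kg they were -1.23, -1.09, -1.01, -0.76 and -0.71. Both treated groups overlapped with the controls, and the differences of -0.33 and -0.24 did not pass (adjusted p = 0.469 and 0.315). Its parent Rpl22 was at 0.02 and 0.06 on its brightest probe, while its other kept probe fell by 0.38 ± 0.09 on the log2 scale at 8 mg/kg (limma adjusted p = 0.0112 over all kept probes). Rps4l lay at 5.64 to 6.44 in the controls and at 5.75 to 6.77 at 8 mg/kg, and the difference of 0.38 ± 0.29 did not pass (adjusted p = 0.506). Rpl36al was at 0.15 ± 0.09 (adjusted p = 0.319).

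Rps27l, which encodes a paralog of Rps27 and is a known p53 target, lies outside the symbol rule and is given for comparison. Its ratios were 1.25, 1.26, 1.29, 1.30 and 1.32 in the controls, 1.36, 1.41, 1.43 and 1.57 at 4 mg/kg and 1.59, 1.60, 1.65, 1.70 and 1.82 at 8 mg/kg. Every animal at 4 and 8 mg/kg lay above every control. Rps27l rose by 0.39 ± 0.06 at 8 mg/kg (1.31-fold, limma adjusted p = 7.4e-04), while at 4 mg/kg the difference of 0.16 ± 0.07 did not pass (adjusted p = 0.5). The change of Rps27l exceeded that of Rps27 by 0.53 ± 0.06 at 8 mg/kg, in 5 of 5 animals above every control (p = 0.00794 by a two-sided exact permutation test, which cannot give less here, and 0.159 adjusted over 20 such tests). The change of Rpl7l1 exceeded that of Rpl7 by 0.48 ± 0.12 (exact permutation p = 0.0159, adjusted 0.159), and 0 of the 20 tests of paralog against parent passed after adjustment (4 had an unadjusted p under 0.05 at 4 or 8 mg/kg, and 1 at 1 mg/kg). With so few animals, a lone pair at its smallest possible p cannot pass this adjustment. The 0 of 20 therefore cannot show that paralogs and parents changed alike. Fau and Rack1, ribosomal proteins that also lie outside the rule, did not pass at 8 mg/kg and were at -0.09 ± 0.11 and 0.05 ± 0.06.

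**Figure D3:**
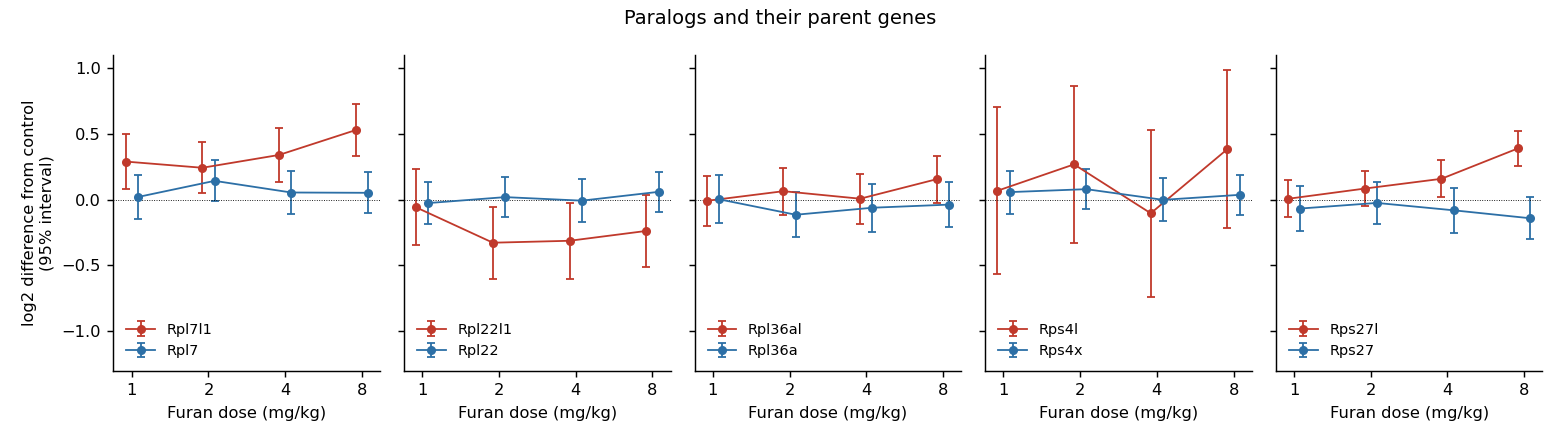
Log2 difference from the control mean with its 95% interval (vertical axis) by furan dose (horizontal axis) for 5 paralogs (red) and their parent genes (blue). Rpl7l1 and Rps27l lie above 0 at 8 mg/kg with intervals that do not reach it, and the parents' intervals at that dose, from the brightest probe of each, include 0.

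Other genes of the translation machinery were set beside the members at 8 mg/kg, where 4.28% of all genes rose and 3.74% fell. Of 32 ribosome biogenesis factors, 15 rose, 0 fell and 17 did not pass, with a median of 0.29. Rrp12, a factor of subunit export, rose by 0.94 ± 0.17, Nop58, a protein of box C/D small nucleolar particles, by 0.80 ± 0.11, and Polr1a, the largest subunit of RNA polymerase I, by 0.40 ± 0.12. Of 27 initiation factors, 6 rose and 0 fell (median 0.14), among them Eif2s1, the alpha subunit of eIF2, at 0.30 ± 0.06. Of 77 mitochondrial ribosomal protein genes, 5 rose and 0 fell (median 0.04), a share of rises near that of all genes, among them Mrps7 at 0.37 ± 0.08. Of 19 other TOP mRNAs, 0 rose and 1 fell (median -0.01): the helicase gene Eif4a2 fell by 0.57 ± 0.12, while the elongation factor genes Eef1a1 and Eef2 were at -0.05 ± 0.11 and -0.09 ± 0.12. Of 21 genes that control ribosomal protein translation, Myc rose by 1.43 ± 0.40 and Sesn2, an inhibitor of mTOR signalling, by 0.84 ± 0.16, and 19 did not pass. Myc passed under 10 of 13 other settings and in 18 of 23 fits without 1 array, at 0.84 to 1.59. Of 8 ribosome quality control genes 2 rose, Abce1 and Pelo. The lists are given by their counts and medians, and no test of the lists was made.

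**Figure D4:**
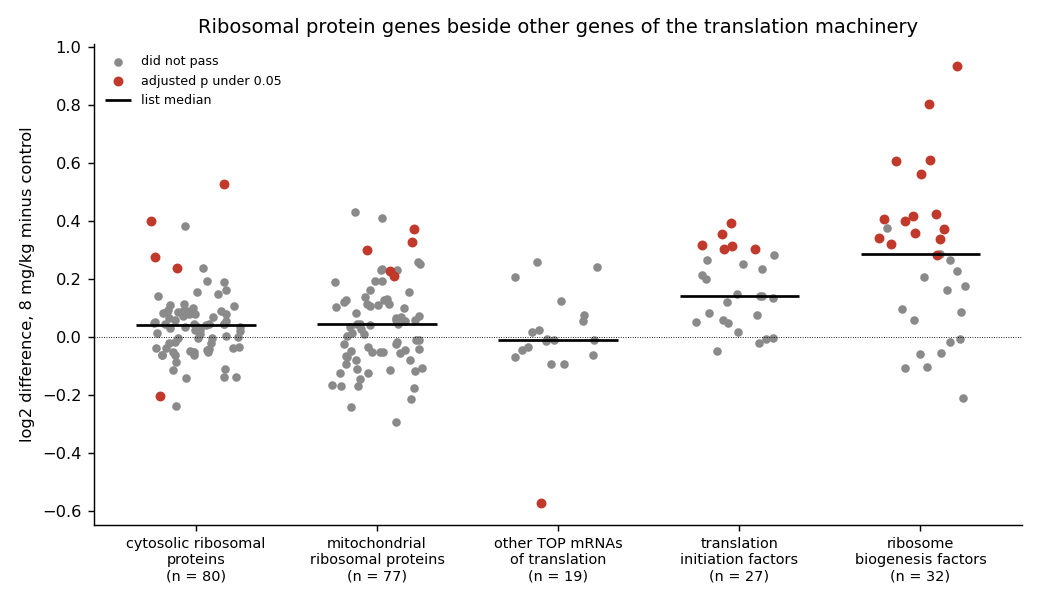
Log2 difference between 8 mg/kg and control (vertical axis) of each gene in 5 lists of the translation machinery, with red points for an adjusted p under 0.05 and a black line at the list median. The biogenesis factors have a median of 0.29 and 15 red points of 32, and the cytosolic ribosomal protein genes a median of 0.043 and 5 of 80.

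Much of the members' spread within groups lay between slides. The median share of their within-group variance was 62.1% between slides, against 55.2% for the 992 bright genes, 72 of which are members, and 39.3% for all genes. These shares are not corrected for the number of slide terms in the fit, so each would lie above 0 without any slide effect. The residuals of member pairs over the 23 arrays correlated with a median of 0.08. With slide as a block, 8 members were called at 8 mg/kg, against 11.7% of all genes: the 5 above, Rpl19, Rpl4 at 0.22 ± 0.06 and Rps20 at -0.18 ± 0.06 (limma adjusted p = 0.0327 and 0.0472 for the last 2). The mean of all members over an animal, relative to the control mean, lay between -0.032 and 0.025 in the controls and between 0.018 and 0.094 at 8 mg/kg, with loess on the processed signals. With median signals the ranges were wider, -0.16 to 0.26 and 0.081 to 0.43, and after normexp they were -0.17 to 0.34 and -0.036 to 0.55. With loess on the processed signals the lower dose groups spanned -0.033 to 0.036 (1 mg/kg), -0.025 to 0.055 (2 mg/kg) and -0.033 to 0.053 (4 mg/kg), with overlap between the controls and each dose group.

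The median change of the family moved with the scaling of the arrays. At 8 mg/kg it was 0.043 with loess on the processed signals, 0.20 with median signals, 0.25 with median signals after normexp, 0.11 with median centring and 0.12 in the deposited value table, and 52, 77, 77, 72 and 68 of the 80 members lay above their controls. At 1 mg/kg the number above was 48 with loess on the processed signals and 61 to 78 with the other scalings. The corresponding numbers were 49 and 56 to 73 for 2 mg/kg, and 31 and 32 to 76 for 4 mg/kg. The 920 genes other than members among the 992 bright genes moved with them, and under these 5 scalings the members' median minus theirs was 0.054 to 0.061 at 8 mg/kg. It was 0.035 to 0.053 with 1 mg/kg, 0.040 to 0.051 with 2 mg/kg and 0.020 to 0.029 with 4 mg/kg. Of the 920, 176 reach the median brightness of the core, so they are mostly dimmer than the members. These differences all rest on the same 5 controls.

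**Figure D5:**
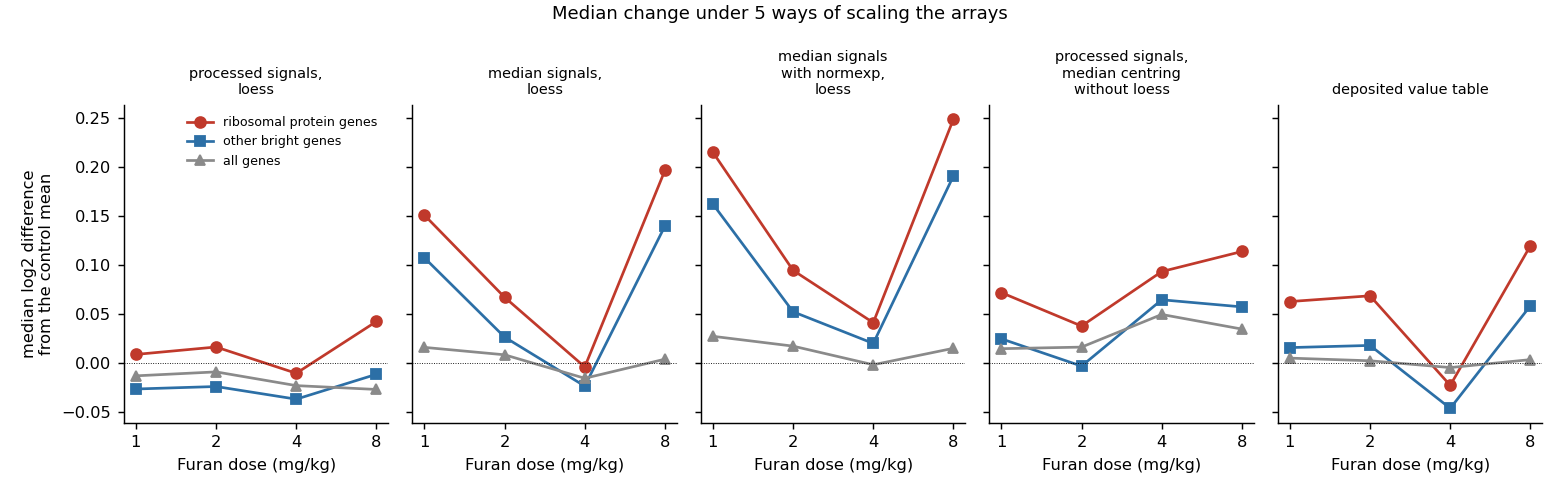
Median log2 difference from control (vertical axes) by furan dose (horizontal axes) of the 80 ribosomal protein genes (red), 920 other bright genes, mostly dimmer than the members (blue) and all genes (grey) under 5 scalings. The red line runs above the blue line in every panel, and both shift together, from 0.043 to 0.25 for the red line at 8 mg/kg.

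Against the universal mouse reference RNA, control liver was lower for 58 of the 76 core genes and higher for 18, while 43.7% of all genes were lower. The median log2 ratio of the core was -0.30. On the brightest probe of each gene, the ratio was lowest for Rpl21 (-1.87 ± 0.21, SD, n = 5) and highest for Rpl10 (0.90 ± 0.10). The Rpl21 probe was the dimmest of the core (mean log2 intensity 8.93, core median 17.50), and its other kept probe was at -0.90. Ratios could differ between probes of a gene, as for Rpl14 (0.44 and -3.42), while those of Rpl10 were 0.60 to 0.90. The counts of 58 and 18 therefore hold for the brightest probes only. The paralog Rps4l was at 5.90 ± 0.32, with a reference signal above background on 21 of 23 arrays. Without a dye swap, a dye effect and a difference between liver and reference cannot be told apart.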

How the data were processed

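The authors' scanner files come from Agilent Feature Extraction 10.7.3.1 on 2-colour arrays, per the file headers. Their deposited processed signals are linear intensities, from which the software had subtracted background and corrected dyes, and the deposited median signals are raw intensities. The deposited value table holds a linear ratio of Cy5 to Cy3 per probe. Other columns of the deposited files are 0 or 1 marks.

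Log2 ratios of processed signals were fitted by loess within arrays (span 0.3, 4 iterations), and 25576 of 55681 probes were kept whose Cy5 signal exceeded background clearly, as marked by the software, on 4 or more arrays of a group. A gene took its brightest probe and needed 3 values per group. Systematic names were matched to symbols in a GRCm38.p6 gene table, which named 12928 of 19899 tested genes. The test was limma 3.58.1 under R 4.3.3 (eBayes after lmFit on all 23 arrays, Benjamini-Hochberg over all genes, threshold 0.05), with code checked on simulated data. The number of arrays limits the precision. The members and lists were chosen with earlier results of these data known. Named genes were the called members, the 5 members highest and the 5 lowest relative to control at 8 mg/kg, and a list of members and comparison genes; Rpl4, Rpl21, Rpl10, Rpl23a, Rpl27a, Rpl30, Rpl36al and the named genes of other lists were added after their values were seen. The tests of paralogs against parents, the comparison with bright genes and the limit of 0.3 on the intervals were chosen after seeing the data. The count of members whose animals at 4 mg/kg did not overlap with the controls is not reported here. Alternatives covered signal, scaling, filters, probes, slide, replicate number and arrays.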

Additional observations from a re-analysis of the deposited data

Results flagged for a closer look

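The values of the named genes and the mean of all members were checked in 175 groups. Of these, 13 (7.43%) had an animal far from the rest of its group, where chance gives about 1 in 20. Among the members, Rpsa was at -0.47 in 8 mg/kg replicate 1, against -0.26 in the nearest animal of that group. At 4 mg/kg, replicate 4 stood apart for Rpl19 (-0.08 against -0.23), Rps27a (0.13 against -0.07) and Rps4l (4.53 against 6.15), and replicate 3 for Rps20 (-0.26 against -0.04). At 2 mg/kg, replicate 5 stood apart for Rplp1 (-0.52 against -0.27) and Rps6 (0.01 against -0.02). Control replicate 2 was at -0.45 for Rpl13a, against -0.26. Among the comparison genes, Cdkn1a was at -1.05 in 8 mg/kg replicate 1, Mdm2 at -1.18 in 4 mg/kg replicate 1, Npm1 at -2.60 in control replicate 1 and at -2.54 in 4 mg/kg replicate 2, and Tpt1 at 0.50 in 2 mg/kg replicate 4. The cause of these values was not tested.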

How the results depend on the processing

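Rpl12 and Rpl7l1 passed at 8 mg/kg under 13 of 13 other settings and in 23 of 23 fits without 1 array. Rpsa passed under 8 and 21, Rpl15 under 6 and 8, and Rps29 under 5 and 16. Not all of these settings could change the result. Evening the brightness between arrays left the log2 ratios unchanged, so its passes repeat the main fit. The strict filter on dim probes kept the same 80 members and called the same 5. Averaging probes left Rpl7l1, with its single kept probe, as it was. The count of 5 members at 8 mg/kg (8.03% of all genes called) became 2 (Rpl12 and Rpl7l1) in the value table (4.74%), without the filter on dim probes (2.52%), without the 4 arrays rich in pancreatic transcripts (6.52%) and with only the 2 groups in the fit (5.29%), and 8 with slide as a fixed block (11.7%). Without 1 array it ranged from 2 to 6: it was 2 without 8 mg/kg replicate 4 and 3 without any of control replicates 1 and 4 and 8 mg/kg replicates 1, 2 and 5. The trend count of 6 (10.4% of all genes called) was 3 in the value table (6.53%) and without the dim filter (3.78%), and 4 to 6 without 1 array. The F test count of 2 (3.11% of all genes) was 0 with median signals (1.7%), with normexp (1.64%), without the dim filter (0.858%) and without the 4 arrays (1.77%). It was 1 in the value table (1.72%), and with 1 letter or digit in the symbol or the core alone (both 3.11%). With probe means (3.16%) or slide as a fixed (5.96%) or random block (7.19%) it was 4. Without 1 array it was 0 to 3. It was 0 when 8 mg/kg replicate 5 was left out and 1 when any of control replicates 3 and 4 and 8 mg/kg replicates 1 and 2 was. The members' median moved to 0.20, 0.067 and 0.15 at 8, 2 and 1 mg/kg with median signals, to 0.25, 0.038, 0.095 and 0.21 at 8, 4, 2 and 1 mg/kg with normexp, to 0.11, 0.093 and 0.072 at 8, 4 and 1 mg/kg with median centring, and to 0.12, 0.069 and 0.063 at 8, 2 and 1 mg/kg in the value table. Without 1 array the medians ranged from 0.022 to 0.056 at 8 mg/kg, -0.022 to -0.0030 at 4 mg/kg, 0.014 to 0.030 at 2 mg/kg and -0.0058 to 0.022 at 1 mg/kg. Rps29 reversed to 0.040 with normexp (adjusted p 0.926). The cause of these shifts was not tested. The replicate numbers served as names: arrays of the same number in other groups correlated in their residuals with a median of 0.02, against 0.22 for arrays of the same slide. With the replicate number as a block, 5 members were called at 8 mg/kg (5 higher, 0 lower), against 7.69% of all genes, with Rpl19 gained and Rps29 lost.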
